A study of Homo sapiens with 2 samples.

Results

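The cystine-glutathione-thioredoxin defence was followed through 10 genes: SLC7A11, SLC3A2, GCLC, GCLM, GSS, GSR, GPX4, TXNRD1, OSGIN1 and NQO1. They were picked by name, with earlier results of these libraries in view, from the 12494 gene names of an FPKM table (fragments scaled to locus length and library size). All loci that carried a member's name were kept, which gave 13 loci. Both libraries came from SBC5, a long-established line of small cell lung cancer, 1 from parental cells with no cisplatin selection and 1 from cisplatin-resistant cells, which the labels call CPr. The resistant cells had been taken through cisplatin at 1, 2, 4 and then 20 µg/ml, a platinum drug that crosslinks DNA, and both lines were kept in medium with serum. The labels do not say whether the resistant cells were 1 clone or whether the drug was present at harvest. With 1 library a group there is no replicate, no spread and no test, so each difference describes this pair of libraries. Values that chose the genes are part of what follows and are given as a description.

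The number of fragments behind a value is unknown, because the table holds no counts, and FPKM summed to 1019555 for parental and 1081047 for resistant cells. Of 16 neuroendocrine markers 9 had a named locus, and all 9 were compared. They summed to 411 and 335 FPKM (here and below parental first, resistant second). UCHL1, a ubiquitin hydrolase of neurons, was near equal at 251 and 259 FPKM, whereas SCG2, a protein of secretory granules, had 108.7 and 20.1 FPKM and was the only one of the 9 past 2-fold (log2 ratio of FPKM + 1 of -2.38). Of the 9, 7 had a log2 ratio above 0 and 2, SCG2 among them, below 0 (median 0.08). The lower resistant sum came from SCG2. The 5 of 10 fibroblast markers compared summed to 148 and 113 FPKM, and they moved in both directions. PDGFRA, a growth factor receptor, was lower at 47.95 and 10.1 FPKM (-2.14), COL3A1, a collagen, was higher at 1.18 and 7.51 FPKM (1.97), and FBLN1, a matrix protein, had 72.5 FPKM in each. The 3 of 10 epithelial markers compared summed to 13.4 and 18.1 FPKM, with CDH1 (E-cadherin) at 0.536 and 4.81 FPKM (1.92) and CLDN4, of tight junctions, at 10.8 and 10.96 FPKM. The 2 of 10 haematopoietic markers were CORO1A, an actin-binding protein, at 26.1 and 16.8 FPKM (-0.61) and HBB, a globin, at 2.69 and 0.472 FPKM (-1.32). No locus bore the name of any of the 8 endothelial markers listed. The part of other cell types in the differences below was not tested.

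As background, cells take up cystine, the oxidised dimer of cysteine, through system xc-, an exchanger that lets glutamate out. Cysteine limits the making of glutathione, the main thiol of the cell, which binds platinum drugs and feeds the enzymes that reduce peroxides. Thioredoxin forms a parallel electron pathway, and the transcription factor NRF2, held down by KEAP1, drives many genes of both systems through antioxidant response elements.

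The stretches before the start sites are shown because most of these genes are known targets of NRF2, and they let a reader set a gene's sequence beside its ratio. RefSeq windows on GRCh38.p14 were found for 7 of the 10 genes, at 12 start sites; SLC7A11, GSS and GSR had no entry. In the 250 bases upstream of each start the core TGACNNNGC was sought on both strands, with no check for overlapping sites of other factors. The core was present at 4 of 12 start sites, in GCLM, SLC3A2 and TXNRD1, and at 10.9% of all 35116 windows of the same length. A second core, TGATGNAA, read by ATF4 in the amino acid response, was present in none of the member windows and in 3.14% of all. The windows of GCLM (chr1:93909431-93909680, minus strand), SLC3A2 (chr11:62881449-62881698, plus strand), TXNRD1 at its upstream start (chr12:104215529-104215778, plus strand) and its downstream start (chr12:104286782-104287031, plus strand), and OSGIN1 (chr16:83952990-83953239, plus strand) follow, with the TGACNNNGC match in capitals in whichever strand it was read.
GCLM: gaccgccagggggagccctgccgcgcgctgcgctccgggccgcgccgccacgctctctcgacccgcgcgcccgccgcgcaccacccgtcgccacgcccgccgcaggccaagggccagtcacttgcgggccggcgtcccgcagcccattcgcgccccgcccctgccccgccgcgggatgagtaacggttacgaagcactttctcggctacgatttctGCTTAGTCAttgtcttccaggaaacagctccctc
SLC3A2: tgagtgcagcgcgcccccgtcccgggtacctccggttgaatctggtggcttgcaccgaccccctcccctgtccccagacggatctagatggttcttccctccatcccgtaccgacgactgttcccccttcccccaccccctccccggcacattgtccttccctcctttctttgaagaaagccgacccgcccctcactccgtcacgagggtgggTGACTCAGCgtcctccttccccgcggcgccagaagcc
TXNRD1 upstream start: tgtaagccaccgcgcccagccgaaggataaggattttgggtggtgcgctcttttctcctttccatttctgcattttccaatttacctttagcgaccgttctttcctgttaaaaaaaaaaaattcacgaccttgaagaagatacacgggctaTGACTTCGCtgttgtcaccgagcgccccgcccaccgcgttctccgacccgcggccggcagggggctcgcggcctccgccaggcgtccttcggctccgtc
TXNRD1 downstream start: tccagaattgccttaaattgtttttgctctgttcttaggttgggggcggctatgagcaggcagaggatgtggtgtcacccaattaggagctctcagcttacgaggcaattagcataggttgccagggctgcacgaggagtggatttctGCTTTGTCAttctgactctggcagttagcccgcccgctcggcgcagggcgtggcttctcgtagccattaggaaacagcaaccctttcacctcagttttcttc
OSGIN1: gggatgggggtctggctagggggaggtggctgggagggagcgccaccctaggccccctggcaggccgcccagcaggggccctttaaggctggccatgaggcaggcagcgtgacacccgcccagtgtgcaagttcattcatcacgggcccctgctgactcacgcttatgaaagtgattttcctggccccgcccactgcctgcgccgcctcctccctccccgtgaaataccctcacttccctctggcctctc
The match ended 26 bases before the start in GCLM, 29 in SLC3A2, 91 at the upstream and 94 at the downstream start of TXNRD1, and OSGIN1 had none. The genes with a match had unlike ratios between the libraries, from 1.05-fold for GCLM to 2.17-fold for TXNRD1. Genes with a window but no match were unlike too, with 2.68-fold for OSGIN1, 1.45-fold for NQO1, 1.22-fold for GPX4 and 0.768-fold for GCLC. Sequence outside the 250 bases and variants of the core were not searched, so an element farther away or spelled otherwise would be missed. A match is a string of letters, not a bound site.

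Cystine uptake held the widest difference. SLC7A11, the light chain that carries cystine in system xc-, was at 3.05 FPKM in the parental library and at 94.5 FPKM in the resistant one, a ratio of 31.02. On the log2(FPKM + 1) scale the ratio was 4.56, a scale that compresses the differences of low genes. The gene stood at percentile 13.4 of the 12405 names compared in the parental library and at percentile 91.2 in the resistant library, so it passed from among the low transcripts to among the high ones. It is annotated on chromosome 4 from 138164097 to 138242349 (hg38 coordinates, minus strand) and had a single locus, in the minus-strand part of the table. The 620 names of like mean level, between 45.7 and 60.5 FPKM, had ratios whose middle 95% ran from -0.55 to 0.82. The mean of SLC7A11 came mainly from its resistant value, so this range is not the spread at its parental level. Among names with means of 5.94 to 7.34 FPKM, nearer that level, the middle 95% ran from -1.18 to 1.51.

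SLC3A2, the heavy chain (CD98hc, 4F2hc) that brings SLC7A11 and other light chains to the cell surface, had 71.8 and 96.6 FPKM and was 1.34-fold higher in resistant cells (log2 ratio 0.42). FPKM is per length, so RNA levels of the 2 chains can be set side by side. The level of SLC7A11 was 0.0424 of that of SLC3A2 in parental cells and 0.978 of it in resistant cells. The transcripts of the 2 chains were thus near equal in FPKM in the resistant library and far apart in the parental one. Amounts of the proteins were not measured. SLC7A5, the light chain of the large neutral amino acid carrier, had 114 and 94.1 FPKM, a level 1.58 times that of SLC3A2 in parental and 0.975 times in resistant cells. SLC7A6, the light chain of a cationic and neutral amino acid exchanger, had 36.3 and 48.8 FPKM, 0.505 and 0.506 of SLC3A2. The summed FPKM of the 3 light chains compared went from 153 to 237. SLC7A11 held 1.99% of that sum in parental cells and 39.8% in resistant cells. SLC7A7, SLC7A8 and SLC7A10 were looked for as well, and no locus compared bore their names.

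**Figure D1:**
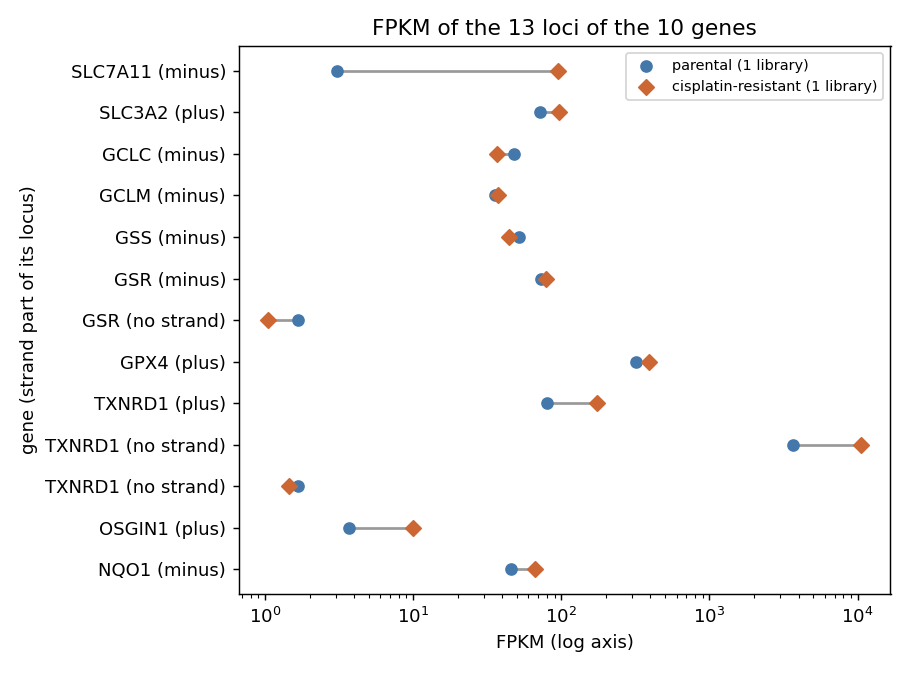
FPKM (log axis) of each of the 13 loci of the 10 genes, with circles for the parental and diamonds for the resistant library, 1 library each. SLC7A11 moves from 3.05 to 94.5 FPKM, while the loci of GCLC, GCLM, GSS and the minus-strand locus of GSR have both symbols close together.

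The enzymes that build glutathione from cysteine stayed within 2-fold. GCLC, the catalytic subunit of glutamate-cysteine ligase, which makes the first and limiting bond, had 47.7 and 36.6 FPKM and was 1.30-fold lower in resistant cells (log2 ratio -0.37). Its modifier subunit GCLM, which lowers feedback inhibition by glutathione, had 35.8 and 37.5 FPKM (0.07), a sign that turned to -0.02 with the FPKM sums of the libraries made equal. The level of GCLM against GCLC was 0.751 in parental and 1.02 in resistant cells. GSS, glutathione synthetase, which adds glycine in the last step, had 52.0 and 44.2 FPKM (-0.23). SLC7A11 had the highest log2 ratio of all 12405 names, so lower ratios in these 3 were fixed in advance. Among 620 names of like level, 55 had a ratio as low as that of GCLC and 171 a ratio as high as that of GCLM, and 133 were as low as GSS.

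Recycling and use of glutathione differed little as well. GSR, glutathione reductase, which restores reduced glutathione with NADPH, had 73.5 and 78.9 FPKM in its minus-strand locus (log2 ratio 0.10). A further locus of that name, without a strand, was at 1.68 and 1.05 FPKM. GPX4, the selenoenzyme that uses glutathione to reduce lipid peroxides in membranes, had 320.0 and 390.0 FPKM (0.28) and was the most abundant of the 10 in each library, leaving aside a TXNRD1 locus without a strand. In the top twentieth of names by level, 46 of 621 had a ratio as high as that of GPX4.

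TXNRD1, the cytosolic thioredoxin reductase, had 3 loci. Its plus-strand locus, on the strand of the gene (chromosome 12, 104215779 to 104350305), had 80.1 and 174 FPKM and was 2.17-fold higher in resistant cells (log2 ratio 1.11). With strand-placed loci alone, 2 of the 609 names of like level, TXNRD1 included, had a ratio as high. A locus of the same name without a strand had 3677 and 10533 FPKM (1.52), and another had 1.67 and 1.44 FPKM (-0.13). The table gives no coordinates or lengths, so which piece of the gene these loci cover is not known.

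Whole-number ratios bear on how many reads lie behind such loci. At equal read numbers the resistant to parental ratio was 0.9964, a value shared within a tolerance of 2e-05 by 153 loci under 5 FPKM. After division by it, the ratio of the TXNRD1 locus at 3677 FPKM equalled 23 to 8 within a relative tolerance of 1.2e-05. The other TXNRD1 locus without a strand gave 13 to 15, and the GSR locus without a strand 17 to 27. Multiples of these numbers give the same ratio. Ratios of whole numbers up to 30 were found in 76.9% of the 6241 loci without a strand that were above 0 in both libraries, in 8.17% of the 12857 such strand-placed loci, and in 0.335% of the loci without a strand on average when 20 wrong factors were used. None of the 10 strand-placed loci of these genes had such a ratio.

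GPX4 and TXNRD1 are selenoproteins, in which an in-frame TGA codon is read as selenocysteine, the residue of their active sites. A search of GENCODE 29 coding sequences found 1 in-frame TGA before the stop codon in GPX4 and 1 in TXNRD1, and 0 in the principal transcripts of the other 8 genes. It was codon 73 of 197 in GPX4 (chr19:1105403-1105405, plus strand) and codon 498 of 499 in TXNRD1 (chr12:104348413-104348415, plus strand). The coding bases around it are shown because this codon is what sets the 2 genes apart from the rest of the group, with TGA in capitals.
GPX4: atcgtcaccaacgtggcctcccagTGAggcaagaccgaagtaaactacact
TXNRD1: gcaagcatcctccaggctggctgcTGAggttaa
Their log2 ratios were 0.28 and 1.11. Of the other 15 selenoprotein genes compared, 0 passed 2-fold upward and 1 downward, where 3.28% and 2.7% of all names did. Counts this small lie near those shares, and nothing particular to selenoproteins is read from them. The median was 0.00 (-0.08 with equal sums). The gene past 2-fold was DIO2, a deiodinase of thyroid hormone, at 4.56 and 0.266 FPKM (-2.13). The most abundant, VIMP (selenoprotein S), had 113 FPKM in each library. SEPW1 (selenoprotein W), chosen after its value was seen, had 50.2 and 93.2 FPKM (0.88). The 11 genes of selenoprotein synthesis ran from -0.34 to 0.11, with SEPHS2, which makes selenophosphate, at 81.0 and 63.8 FPKM and RPL30, a ribosomal protein that binds selenocysteine insertion elements, at 1764 and 1768 FPKM.

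The remaining 2 genes are NRF2 targets. OSGIN1, an oxidative stress induced growth inhibitor, had 3.70 and 9.91 FPKM and was 2.68-fold higher in resistant cells (log2 ratio 1.22). At that low level wide ratios were common: 21 of 620 names of like level were as high, and the middle 95% ran from -1.18 to 1.51. With a pseudocount of 5 its log2 ratio was 0.78, inside 2-fold. NQO1, a quinone reductase that serves as a standard readout of NRF2, had 45.6 and 66.2 FPKM, 1.45-fold higher (0.53), and 24 of 620 names of like level were as high.

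In all, 8 of the 10 genes lay above 0 and 2, GCLC and GSS, below (GCLM joined them with equal sums), with a median log2 ratio of 0.35 against -0.04 over all names. SLC7A11, TXNRD1 and OSGIN1 were at least 2-fold higher, where 3.28% of the 12405 names compared were, and 0 were at least 2-fold lower, where 2.7% were. Since these ratios helped choose the genes, nothing is read from the counts. At 4-fold only SLC7A11 of the 10 passed, as did 0.613% of all names. All 10 passed the filter of 1 FPKM in either library. By level of the strand-placed loci, GPX4 and TXNRD1 held places 1 and 2 of the 10 in each library. SLC7A11 went from place 10 to place 4, GSR from 3 to 5, GCLC from 6 to 9 and OSGIN1 from 9 to 10. Without replicates, neighbours in that order, such as SLC3A2 and SLC7A11 at 96.6 and 94.5 FPKM in resistant cells, cannot be told apart.

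**Figure D2:**
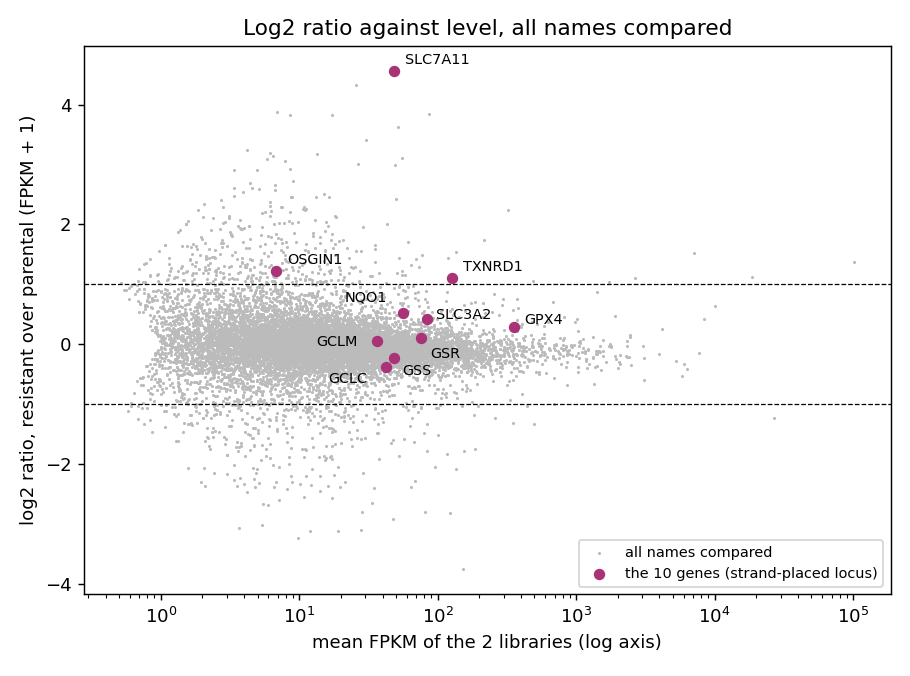
Log2 ratio of resistant over parental FPKM + 1 against mean FPKM (log axis) for all names compared (grey) and for the strand-placed loci of the 10 genes (purple); dashed lines mark 2-fold. SLC7A11 lies at the top at 4.56, TXNRD1 (1.11) and OSGIN1 (1.22) above the upper line, and the other 7 between the lines.

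Genes that regulate these systems were mostly within 2-fold. Of 19 compared, 1 lay above 2-fold and 0 below it, where 3.28% and 2.7% of all names did. Counts this small lie near those shares, and nothing particular to the regulators is read from them. The median was -0.01 (0.03 after division of the resistant library by the median ratio). The gene above 2-fold was EIF2AK3 (PERK, the kinase that senses unfolded proteins in the endoplasmic reticulum), at 17.3 and 37.1 FPKM (log2 ratio 1.06). ATF4, the factor that this kinase and the amino acid sensor EIF2AK4 raise by translation and that drives SLC7A11, had 231 and 177 FPKM (-0.38), and SQSTM1, which draws KEAP1 away from NRF2, had 136 and 173 FPKM (0.34). NFE2L2, the gene of NRF2 itself, had 65.3 and 83.9 FPKM (0.36), KEAP1 30.5 and 36.2 FPKM (0.24), and BACH1, a repressor at the same elements, 16.3 and 12.96 FPKM (-0.31). NRF2 and ATF4 are controlled largely at the level of protein, which RNA does not show.

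Other targets of the same factors were given the same limit, which 3.28% of all names passed upward and 2.7% downward. Of 26 other NRF2 targets compared, 0 passed 2-fold in either direction, 12 lay above 0 and 14 below, and the median was -0.02 (0.02 after division by the median ratio). The highest, ABCC2, an efflux pump for conjugates of glutathione, had 4.74 and 10.3 FPKM, which is 2.17-fold without a pseudocount and just inside the limit with 1 added (0.97). FTL, the ferritin light chain, had 961 and 1118 FPKM (0.22), PRDX1, a peroxiredoxin, 942 and 914 FPKM (-0.04), and HMOX1, haem oxygenase, 20.2 and 27.5 FPKM (0.43). Of 29 ATF4 targets, 0 were at least 2-fold higher, 1 was lower and 21 lay below 0, with a median of -0.16. The lower was DDIT4, an inhibitor of mTORC1, at 6.20 and 1.91 FPKM (-1.31). GARS, a tRNA synthetase, had 322 and 280 FPKM (-0.20), and MTHFD2, a mitochondrial folate enzyme, 174 and 172 FPKM (-0.02). In lists of this size, counts of 0 and 1 lie near the shares over all names, and nothing particular to these targets is read from them.

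Other routes to cysteine were compared in 22 genes (median -0.08). Of these, 0 were at least 2-fold higher and 1 lower, near the shares of 3.28% and 2.7% over all names. MTRR, which reactivates methionine synthase, had 286 and 84.5 FPKM (log2 ratio -1.75). SLC1A1, a carrier of glutamate and cysteine, had 4.78 and 2.01 FPKM, 2.37-fold lower without a pseudocount and just inside the limit with 1 added (-0.94). AHCY, which releases homocysteine, had 568 and 538 FPKM (-0.08). CBS, the first enzyme of transsulfuration, had 545 and 589 FPKM (0.11), but its locus lay in the strandless part and its ratio equalled 13 to 12, so that level is uncertain. Of the thioredoxin and peroxiredoxin system, 0 of 21 compared passed 2-fold, the range was -0.38 to 0.55 and the median -0.01 (0.03 after division by the median ratio), with GLRX3 at 719 and 723 FPKM. The substrate of TXNRD1, TXN, had 362 and 350 FPKM (-0.05).

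Of 14 glutathione peroxidases and transferases compared, 0 passed 2-fold and the median was -0.05. GSTP1, a transferase that conjugates glutathione to drugs, had 347 and 404 FPKM (0.22). GSTM1, whose sequence is close to its paralogs, had 213 and 212 FPKM, a ratio of equal read numbers, and is uncertain. Of 17 genes that supply NADPH, 0 passed 2-fold and 14 lay below 0 (median -0.11). TKT, of the pentose phosphate pathway, had 159 and 158 FPKM and MTHFD2 is given above, while NNT, the mitochondrial transhydrogenase, had 14.3 and 27.2 FPKM (0.88). In the 14 genes of lipid peroxidation and its control (median -0.11), PTGS2, a cyclooxygenase made on induction, had 0.875 and 6.34 FPKM (1.97) and ACSL3, which activates monounsaturated fatty acids, 19.6 and 8.59 FPKM (-1.10), whereas PEBP1 (123 and 125 FPKM) and POR (117 and 122 FPKM) were near equal. PTGS2, ACSL3, DDIT4, DIO2, MTRR and EIF2AK3 were the genes past 2-fold in these lists besides the 10 genes, cell type markers apart, against 3.28% higher and 2.7% lower over all names. With a pseudocount of 5 only MTRR (-1.70) of these 6 stayed past 2-fold, while EIF2AK3 had 0.92, PTGS2 0.95, ACSL3 -0.86, DIO2 -0.86 and DDIT4 -0.70.

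**Figure D3:**
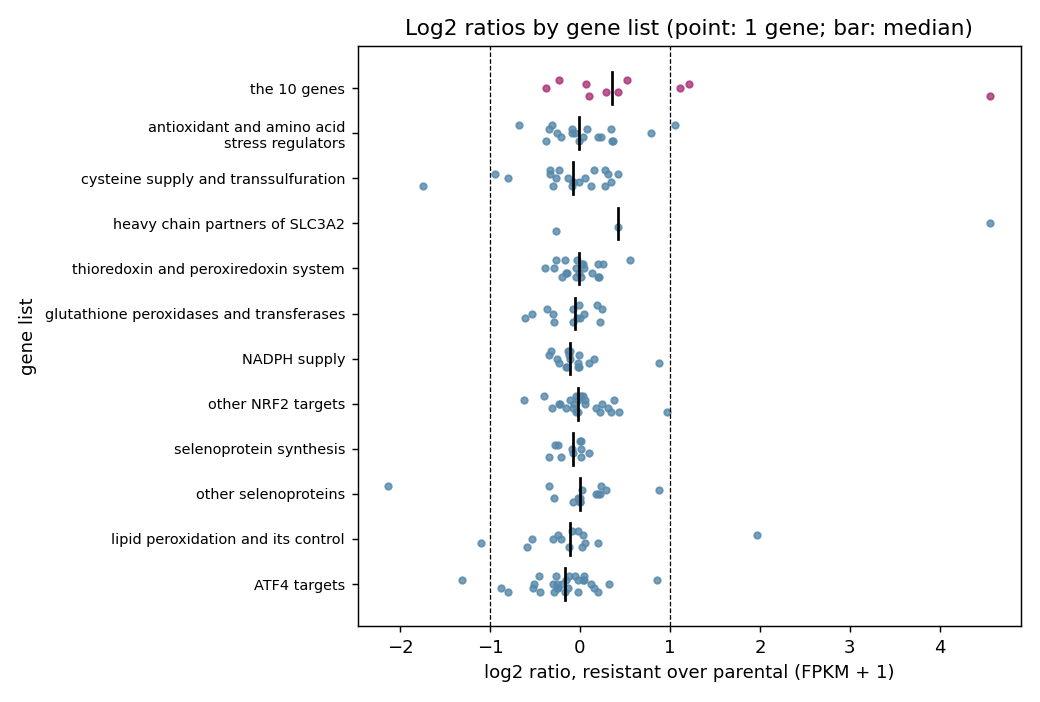
Log2 ratios (resistant over parental, FPKM + 1) of the 10 genes and of 11 lists of related genes, 1 point a gene from its strand-placed locus, with a black bar at each median and dashed lines at 2-fold. The point at 4.56 is SLC7A11, which also belongs to the list of SLC3A2 partners; the medians of the other 10 lists lie between -0.16 and 0.00.

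Position in the genome was looked at through the 5 nearest compared genes on each side of each gene. The 10 neighbours of SLC7A11, spread over 11.5 Mb of chromosome 4, had ratios from -0.32 to 0.64 with a median of 0.02. The nearest compared genes on either side, C4orf33 and ELF2, had 0.991 and 1.61 FPKM (log2 ratio 0.39) and 16.0 and 16.4 FPKM (0.03). Genes below the filter were passed over, so these need not adjoin SLC7A11. SLC7A11 had the highest log2 ratio of all 12405 names on this scale, so lower ratios in its neighbours were fixed in advance. A change of the whole region was not tested. The neighbours of TXNRD1, within 1.47 Mb of chromosome 12, ran from -0.83 to 0.37 (median -0.18), and NFYB and CHST11 beside it had log2 ratios of -0.22 and -0.20. Those of OSGIN1, on chromosome 16 (83948282 to 83966332), ran from -0.17 to 0.93 with a median of 0.03, with MLYCD and NECAB2 beside it at -0.08 and 0.23. Of all 100 neighbours of the 10 genes, 1 was above 2-fold and 1 below it (median -0.01), where 3.28% and 2.7% of all names were. Counts this small lie near those shares, and nothing particular to the neighbours is read from them. Past 2-fold were DST, near GCLC on chromosome 6, at 7.51 and 20.2 FPKM (1.31), and RBPMS, near GSR on chromosome 8, at 2.51 and 0.417 FPKM (-1.31). Adding 5 instead of 1 gave -0.47 for RBPMS.

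**Figure D4:**
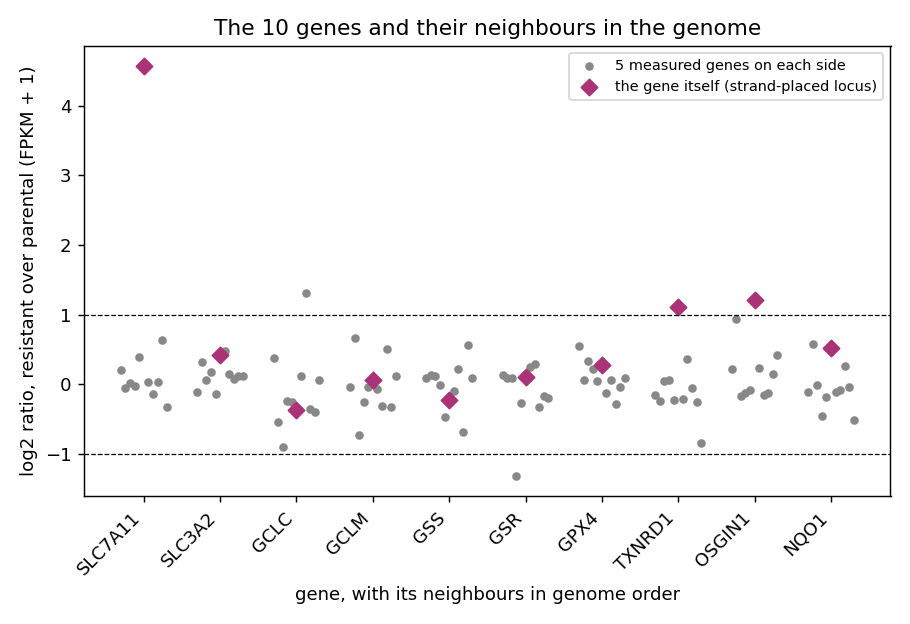
Log2 ratio (resistant over parental, FPKM + 1) of each of the 10 genes (diamonds, strand-placed locus) and of the 5 nearest compared genes on each side (grey points, in genome order); dashed lines mark 2-fold. SLC7A11, the highest of all names compared, is at 4.56, and its neighbours run from -0.32 to 0.64.

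The 3 names whose log2 ratio lay nearest to that of SLC7A11, over the 2 libraries, were SEMA3D, a secreted guidance protein, at 1.54 and 49.7 FPKM (4.32), LOC439933, listed at 0 and 13.7 FPKM, and MAP2, a microtubule protein of neurons, at 10.4 and 163 FPKM (3.85). Likeness of ratio in a pair of libraries says nothing of shared control.

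**Figure D5:**
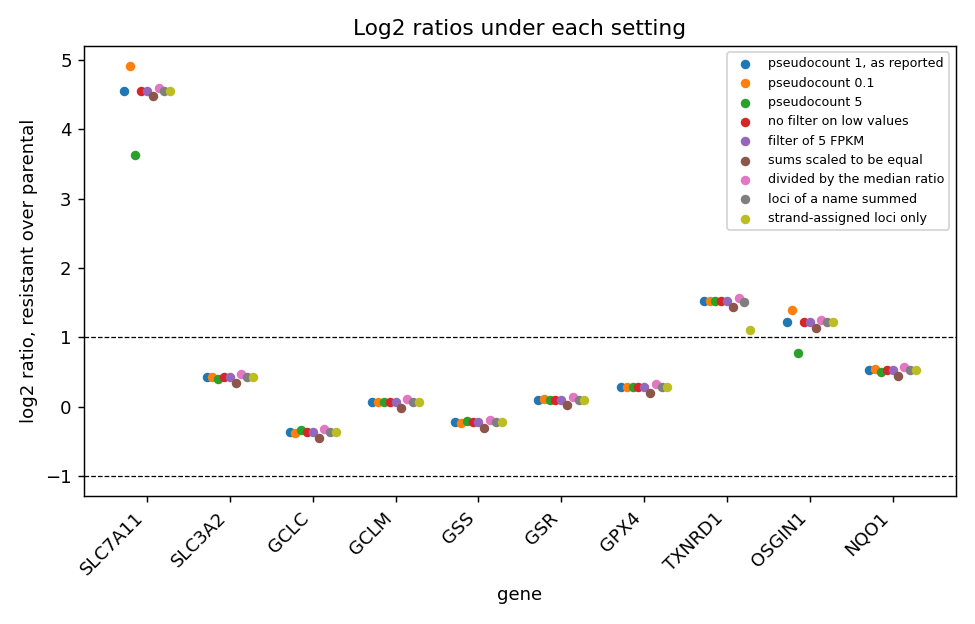
Log2 ratio of each of the 10 genes (y axis) with a pseudocount of 1 as reported and under the 8 other settings that give a ratio, 1 colour a setting; dashed lines mark 2-fold. SLC7A11 runs from 3.63 to 4.91, OSGIN1 falls inside 2-fold (0.78) with a pseudocount of 5, and TXNRD1 is lowest (1.11) with strand-placed loci.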

How the data were processed

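RNA from 1 parental and 1 cisplatin-resistant SBC5 library was compared; per the labels' protocols, libraries of polyadenylated RNA were made with a stranded kit. The deposited table gives FPKM per locus, per the file headers. TopHat2 and the build hg38 are named per the submitters' processing notes; for its version, the FPKM program and the annotation, nothing is given in the sources used here. The description field of each sample matched 1 column, leaving 0 over.

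Of 19217 loci, 2919 without a name and 23 with a date for a name were left out. The locus of highest mean FPKM stood for a name, and names reaching 1 FPKM in at least 1 library were compared. The log2 ratio was that of resistant FPKM + 1 over parental FPKM + 1. With 1 library a group a limit of 2-fold replaced a test and no p-value was computed. Strand parts were inferred from the order of loci on each chromosome: 12895 loci fell in a plus or minus part and 6322 in neither. Of 11562 placed loci with a strand in GENCODE, 98.6% matched it. Names of like level are 1 of 20 equal bins of mean FPKM. Positions came from GENCODE 29, on the same build, for 11647 names; promoter windows came from RefSeq.

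The genes, lists and tests were chosen with earlier results of these data known. Genes named were the 10 genes and the members of each list past 2-fold or among its 2 of highest mean FPKM. The 3 light chains, the nearest compared neighbour on each side, neighbours past 2-fold and the 3 names nearest to SLC7A11 were also named. NFE2L2, KEAP1, BACH1, HMOX1, TXN, NNT, ABCC2, SLC1A1 and SEPW1 were added after their values were seen. The calculation was run on simulated data in which well-expressed names were given changes larger than the limit. Their recovery was built in, so the run checked the code only. Strand placement, low levels and whole-number ratios were not part of it. Alternatives were pseudocounts of 0.1 and 5, no filter, a filter of 5 FPKM, 2 other scalings, summed loci, strand-placed loci only and a limit of 4-fold. Python 3.11.15, pandas 2.3.3, NumPy 2.4.6 and matplotlib 3.10.9 were used.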

Additional observations from a re-analysis of the deposited data

How the results depend on the processing

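Of the 10 genes, 3 passed 2-fold upward and 0 downward. At a limit of 4-fold 1 of the 10 was higher. Over all names the counts were 407 higher and 335 lower; a pseudocount of 0.1 gave 614 higher, a pseudocount of 5 gave 142 higher and 136 lower, and a limit of 4-fold gave 76 higher and 60 lower. SLC7A11 kept its direction and stayed past 2-fold under the 8 alternatives that give a ratio, from 3.63 to 4.91, and its rank was 12 of 12405 with a pseudocount of 0.1 and 2 of 12406 with loci summed. OSGIN1 fell inside 2-fold with a pseudocount of 5 (0.78), which lowers the ratio of low genes by construction, and TXNRD1 ran from 1.11 to 1.56. The sign of GCLM turned with equal sums (-0.02). No paired analysis was possible because each group has 1 library. Depth is unknown, so the counting error of low values, such as SLC7A11 and OSGIN1 in parental cells, could not be given.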
